A study of Bos taurus with 6 samples.

Results

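Transcripts of the cholesterol pathway were followed in bovine cumulus cells, the layers of somatic cells around an oocyte, after culture with or without an agent mixture that raises cyclic AMP. The set held 30 genes, taken as every probe whose platform gene symbol was a listed member: enzymes that build cholesterol, the proteins that sense it, and those that take it up, move it, store it and export it. All 30 had a probe on the array, and 28 had signal enough to be tested, of 12381 genes tested in all. In the FID group, cumulus-oocyte complexes matured in medium with forskolin (100 µM, an activator of adenylyl cyclase), IBMX (500 µM) and dipyridamole (50 µM), which both inhibit phosphodiesterases. The control complexes had the same medium without these agents. Complexes of both groups were aspirated from ovaries of Holstein cows at slaughter, and the medium of both held serum and estradiol. No arm received 1 agent alone, and each complex was cultured with its oocyte, so the cumulus cells were not exposed on their own. The sources used here do not settle the time in culture: the control samples' names carry 6 h, while the protocol gives 22 to 24 h for both groups.

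Cells make cholesterol from acetyl units through mevalonate and squalene, then close squalene into a ring and trim the ring to cholesterol. The SREBP transcription factors switch on most of these genes when membrane sterol is low, and the INSIG proteins hold SREBP back when sterol is plentiful. Cholesterol also enters cells from lipoproteins, and granulosa-lineage cells turn part of it into steroid hormones. In the mouse, cumulus cells are known to make cholesterol that passes to the oocyte, which makes little of its own. The roles given below are those known in mammals, mostly from human and rodent work.

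The 6 two-colour arrays held 3 biological replicates, numbered 1, 2 and 4 in the labels, each with FID against control on a pair of arrays with the dyes exchanged. Values are log2 ratios of FID over control, so a positive value means more signal with FID, and each replicate's value is the mean of its pair. Between 51.1% and 84.7% of probes were above background in FID channels, against 58.4% to 86.5% in control channels, and 3 replicates limit the precision of every value. Ratios of the same replicate correlated at 0.55 to 0.805 over all tested probes, those of different replicates in the same dye orientation at 0.56 to 0.61, and those of different replicates with opposite dyes at 0.33 to 0.46. Arrays that shared a dye orientation were thus correlated about as closely as some that shared a replicate. Of 12 cumulus and granulosa markers, 11 were above background in both groups on every array, and the other, FOXL2, could not be tested. In the test over all probes (limma with Benjamini-Hochberg adjustment, threshold 0.05), 132 genes were higher and 160 lower with FID. With arrays centred on their median in place of loess these counts were 114 and 247.

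None of the 28 tested cholesterol genes passed that threshold, while 2.36% of all tested genes did. The smallest adjusted p in the limma test was 0.0806, and 7 of the 28 had an unadjusted p under 0.05, where 28.6% of all genes did. In bulk samples such as these, fewer cells of a type and less RNA per cell cannot be told apart. Fitted ratios were negative for 16 of the 28 (57.1%; 48.6% of all genes) and positive for 12, with a median of -0.12 and a range of -1.28 to 1.15, where the median of all tested genes was 0.01. Under median centring 20 of the 28 were negative, with a median of -0.19. Without replicate 1 the members' median was -0.20, without replicate 2 -0.05 and without replicate 4 -0.18. The members' values also spread more between replicates, with a median standard error (SE) of 0.21, against 0.14 over all genes.

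**Figure D1:**
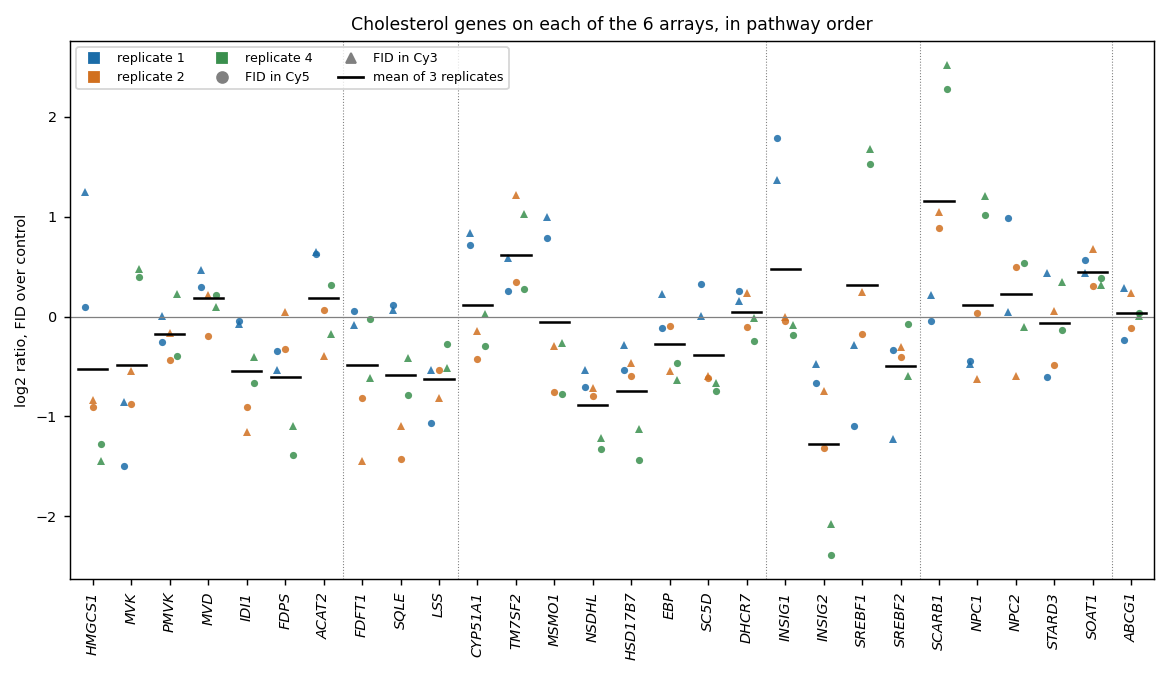
The log2 ratio of FID over control is plotted for each tested cholesterol gene, in pathway order, with 1 point for each array (colour for the replicate, circles for FID in Cy5, triangles for FID in Cy3) and a black line for the mean of the 3 replicates; dotted lines part the roles. INSIG2, with a mean of -1.28, and SCARB1, with 1.15, lie farthest from 0, and most synthesis enzymes lie below 0 with wide scatter.

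Direction was the same on all 6 arrays for a minority of members. IDI1, LSS, NSDHL, HSD17B7, INSIG2 and SREBF2 were lower with FID on 6 of 6 arrays, which is 21.4% of the members where 15.4% of all genes did so. TM7SF2 and SOAT1 were higher on 6 of 6, which is 7.14% where 12.5% of all genes did so. A fit of all 6 arrays, with the dye as a term and each replicate as a random block, called 1 member higher, TM7SF2, and 3 lower, NSDHL, HSD17B7 and INSIG2. That fit called 8.85% of all genes higher and 11.9% lower, and its degrees of freedom count both arrays of a replicate. It also takes the same within-replicate correlation, 0.61, for every probe. Its p-values given below share these limits, and the limma test on the means of 3 replicates is the main one.

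The enzymes that lead from acetyl units to farnesyl diphosphate had a median of -0.49, with 5 of 7 negative and none past the threshold. HMGCS1, which makes the HMG-CoA from which mevalonate is formed, had 0.67 in replicate 1, -0.87 in replicate 2 and -1.36 in replicate 4, a mean of -0.52 ± 0.45 (SE, n = 3). Its replicates thus lay on both sides of 0. MVK, the first kinase to act on mevalonate, had -1.18, -0.71 and 0.43 in replicates 1, 2 and 4, and here replicate 4 stood on the other side. The next kinase, PMVK, averaged -0.17 ± 0.10 and was negative in every replicate. In FID channels the PMVK spot was above background on 3 of 6 arrays. MVD, which forms isopentenyl diphosphate, averaged 0.18 ± 0.11. IDI1, the isomerase of that product, had -0.06, -1.03 and -0.53, with a mean of -0.54 ± 0.22. FDPS, which makes farnesyl diphosphate, had -0.44, -0.14 and -1.24, a mean of -0.61 ± 0.25 (limma adjusted p = 0.267). ACAT2, which joins acetyl-CoA units in the cytosol, averaged 0.18 ± 0.19, with a negative sign under median centring.

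All 3 enzymes that make squalene and close it into a ring had negative means, with a median of -0.59. FDFT1, the squalene synthase, had -0.01, -1.13 and -0.32 in replicates 1, 2 and 4, and SQLE, the squalene epoxidase, had 0.09, -1.26 and -0.60. Both were near 0 in replicate 1 and lowest in replicate 2. LSS, which closes the ring to lanosterol, had ratios of -1.07 and -0.54 on the arrays of replicate 1, -0.53 and -0.82 on those of replicate 2, and -0.27 and -0.52 on those of replicate 4. All 6 values were below 0, and in FID channels the spot was above background on 5 of 6 arrays. The mean was -0.62 ± 0.12, or 1.54-fold lower with FID, with an adjusted p of 0.0863 in the limma test.

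The 8 enzymes that trim lanosterol to cholesterol had a median of -0.16 and did not move as one. NSDHL, a dehydrogenase that takes part in removing the ring's methyl groups, had -0.71 and -0.54 in replicate 1, -0.80 and -0.72 in replicate 2, and -1.33 and -1.22 in replicate 4. Every array was below 0, with replicate 4 lowest. The mean level was 10.07 with FID and 10.96 in control (normalised log2 intensity), a ratio of -0.88 ± 0.16 and 1.85-fold lower with FID. The limma adjusted p was 0.0839, and in the fit with the replicate block it was 0.0067.

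HSD17B7, the ketoreductase of the same demethylation, showed a like order of replicates. It had -0.53 and -0.29 in replicate 1, -0.59 and -0.47 in replicate 2, and -1.44 and -1.13 in replicate 4, all below 0. Its mean was -0.74 ± 0.21 (limma adjusted p = 0.152, or 0.0267 with the replicate block), and -0.47 without replicate 4. TM7SF2, a reductase of the sterol ring, lay on the other side of 0. Its values were 0.26 and 0.59 in replicate 1, 0.35 and 1.22 in replicate 2, and 0.28 and 1.02 in replicate 4, and in each pair the array with FID in Cy3 was the higher. The mean was 0.62 ± 0.11, 1.54-fold higher with FID, with a limma adjusted p of 0.0806, the smallest of the members, and 0.0252 with the replicate block. With only the arrays with FID in Cy5 the mean was 0.29, and with only those with FID in Cy3 it was 0.94.

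Other ring enzymes were closer to 0 or split by replicate. CYP51A1, which begins the demethylation of lanosterol, had 0.78, -0.29 and -0.13 in replicates 1, 2 and 4. MSMO1, the methylsterol oxidase, had 0.89, -0.53 and -0.52. In both, replicate 1 was positive and the other replicates negative, and the mean of CYP51A1 (0.12 ± 0.25) turned negative under median centring. EBP, which moves a double bond in the ring, averaged -0.27 ± 0.15, and SC5D, a sterol desaturase, -0.38 ± 0.21. DHCR7, the reductase that yields cholesterol, averaged 0.05 ± 0.11, with a 95% confidence interval of -0.26 to 0.35, and was negative under median centring.

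Over the 18 synthesis enzymes together, a subset chosen after its values were seen, the median was -0.43. Of them 13 were negative and 5 positive, where 48.6% of all tested genes were negative. Under median centring 16 were negative, and there the median of all tested genes was 0.008. The enzymes' median was 0.07 in replicate 1, -0.53 in replicate 2 and -0.46 in replicate 4. Lower values with FID were found for 8 of 18 enzymes in replicate 1, 15 in replicate 2 and 14 in replicate 4, where 51.5%, 50.7% and 49.0% of all tested genes were lower in replicates 1, 2 and 4. The median without replicate 1 was -0.53, without replicate 2 -0.25, and without replicate 4 -0.22. The same genes are shown in the plot of the synthesis enzymes by replicate, in which HMGCS1, MSMO1 and CYP51A1 have replicate 1 well above 0 and the other replicates below it.

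**Figure D2:**
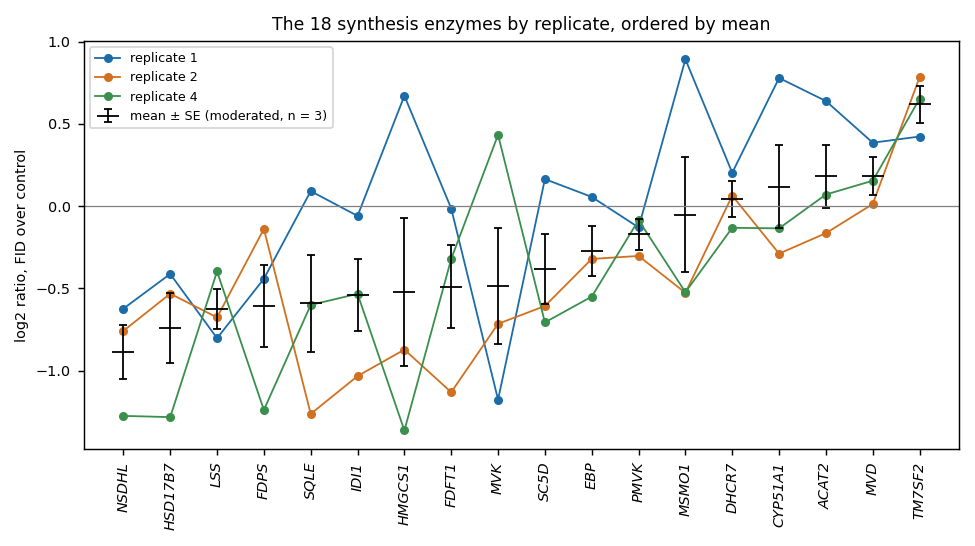
The log2 ratio of FID over control is plotted for the 18 synthesis enzymes ordered by mean, with a coloured line for each replicate and a black bar for the mean ± SE (n = 3). NSDHL at -0.88 is lowest and TM7SF2 at 0.62 highest, and the line of replicate 1 lies above 0 for several genes in which those of replicates 2 and 4 lie below.

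Markers of other cells also differed by replicate. The 16 oocyte markers were all tested and all had positive ratios, none past the threshold, with medians of 0.96 in replicate 1, 2.49 in replicate 2 and 0.11 in replicate 4. Their summed signal ran between 2544 and 48028 with FID and between 2170 and 6925 in control. Of 10 theca and stroma markers 9 were tested, and their summed signal was 9366 to 16316 with FID, against 23652 to 31299 in control. ACTA2, the brightest of them, weighed most in that sum, with a mean level of 13.12 with FID and 14.18 in control (normalised log2 intensity). It did not pass the threshold (limma adjusted p = 0.151). PDGFRA and LUM fell, while COL3A1 (0.29), COL1A2 (0.13) and INSL3 (0.03) had positive ratios, none past the threshold. Blood and immune markers, 8 of 12 tested, summed to 2197 to 5308 with FID and 1730 to 3326 in control. Endothelial markers, 4 of 6 tested, without PECAM1 and EMCN, summed to 494 to 713 with FID and 502 to 666 in control. The part of these cells in the values of the cholesterol genes was not tested.

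Among the sterol sensors, the INSIG pair gave means of opposite sign by their brightest probes, but not by the mean over all tested probes. INSIG2, which holds SREBP in the endoplasmic reticulum, had -0.66 and -0.47 in replicate 1, -1.32 and -0.74 in replicate 2, and -2.38 and -2.08 in replicate 4. All arrays were below 0, and the replicates were spread widely. Its mean level was 8.55 with FID and 9.83 in control (normalised log2 intensity), giving -1.28 ± 0.37, 2.42-fold lower with FID. Without replicate 4 the mean was -0.80. The adjusted p was 0.152 in the limma test and 0.0197 with the replicate block, and its other probe averaged -0.36.

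INSIG1 does the same work and is itself an SREBP target. Its brightest probe had 1.58 in replicate 1, -0.02 in replicate 2 and -0.13 in replicate 4, so its mean of 0.47 ± 0.41 came from 1 replicate, and without replicate 1 the mean was negative. A second INSIG1 probe averaged -0.55 ± 0.10 (limma adjusted p = 0.0771, or 0.0143 with the replicate block). On that probe the arrays with FID in Cy5 gave -1.11, -1.07 and -1.32, and those with FID in Cy3 gave 0.10, 0.14 and -0.05, a split by dye.

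SREBF2 encodes the SREBP that mainly drives cholesterol genes. Its brightest probe had -0.34 and -1.23 in replicate 1, -0.40 and -0.31 in replicate 2, and -0.08 and -0.59 in replicate 4, with a mean of -0.49 ± 0.13 (limma adjusted p = 0.141). All arrays were below 0, the mean with only FID in Cy5 was -0.27, and the other SREBF2 probe gave -1.49, 0.99 and 0.20 in replicates 1, 2 and 4. SREBF1, whose SREBP serves mainly fatty acid genes, had -0.69, 0.03 and 1.61, and its mean of 0.32 ± 0.49 was negative without replicate 4.

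The genes of uptake, lysosomal exit, transfer and storage had a median of 0.23 over the 5 that were tested. SCARB1, the high-density lipoprotein receptor through which steroid-forming cells take up cholesterol esters, had the highest mean of all members. Its values were -0.04 and 0.22 in replicate 1, 0.89 and 1.05 in replicate 2, and 2.28 and 2.52 in replicate 4. Replicate 1 was thus close to 0 and replicate 4 far above it. The mean level was 11.30 with FID and 10.15 in control (normalised log2 intensity), a ratio of 1.15 ± 0.49 or 2.22-fold higher with FID, and without replicate 4 the mean was 0.53. The limma adjusted p was 0.279, and the 95% confidence interval of -0.23 to 2.54 took in 0.

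SOAT1, which esterifies cholesterol for storage in droplets, varied little between replicates. It had 0.56 and 0.44 in replicate 1, 0.30 and 0.68 in replicate 2, and 0.38 and 0.32 in replicate 4, with every array above 0. The mean was 0.45 ± 0.09, 1.36-fold higher with FID, with an adjusted p of 0.0916 in the limma test and 0.0621 with the replicate block. Under median centring the mean was 0.23 (limma adjusted p = 0.354). NPC1, the membrane protein that passes cholesterol out of lysosomes, had -0.46, -0.29 and 1.11 in replicates 1, 2 and 4. Its soluble partner NPC2 averaged 0.23 ± 0.14 and STARD3, which carries sterol from late endosomes, -0.06 ± 0.11. The means of NPC1, NPC2 and STARD3 each took the other sign under median centring.

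Of the exporters, ABCG1, which loads cholesterol onto high-density lipoprotein, averaged 0.04 ± 0.08, with a 95% confidence interval of -0.20 to 0.27. Its signal was low, with a mean level of 7.34 with FID and 7.31 in control (normalised log2 intensity). With FID its spot was above background on 5 of 6 arrays. ABCA1, which exports cholesterol to lipid-poor apolipoprotein, was above background on 3 of 6 arrays with FID and 2 of 6 in control, and was not tested. STARD4, a sterol carrier of the cytosol, was also not tested. None of its 3 probes was above background with FID on any array, and 1 was so on 2 control arrays. For neither gene could a difference be measured at this signal.

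The members had 56 probes, of which 50 were tested, and none of these passed the threshold. Ratios were negative for 35 probes and positive for 15, with a median of -0.22. Genes with several probes count more than once here, and the share over all tested probes is not given. By the brightest probe, 57.1% of the tested members and 48.6% of all tested genes were negative. The smallest adjusted p of any member probe in the limma test was 0.0726, for an MVK probe that was not the brightest of its gene and that averaged -0.93 ± 0.15. With the replicate block its adjusted p was 0.00607. Besides it, the brightest probes called by that fit and the INSIG1 probe above, a HMGCS1 probe that averaged -1.12 also passed (adjusted p = 0.0387). Over the whole array that fit called 5190 of 32192 tested probes. More than 1 probe was tested for 13 members, and their probes disagreed in sign for 6 of them, HMGCS1, PMVK, ACAT2, CYP51A1, TM7SF2 and INSIG1, where this was so for 40.7% of 2998 such genes on the array. All 4 probes of FDPS and all 4 of MSMO1 were negative, with ranges of -0.61 to -0.15 and -0.63 to -0.05. The other TM7SF2 probe averaged -0.06, and the other tested NSDHL probe averaged -0.31. That NSDHL probe was not above background with FID on any array but was so on 4 of 6 control arrays (limma adjusted p = 0.149). Its signal was thus near background, and the size of its difference is uncertain.

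**Figure D3:**
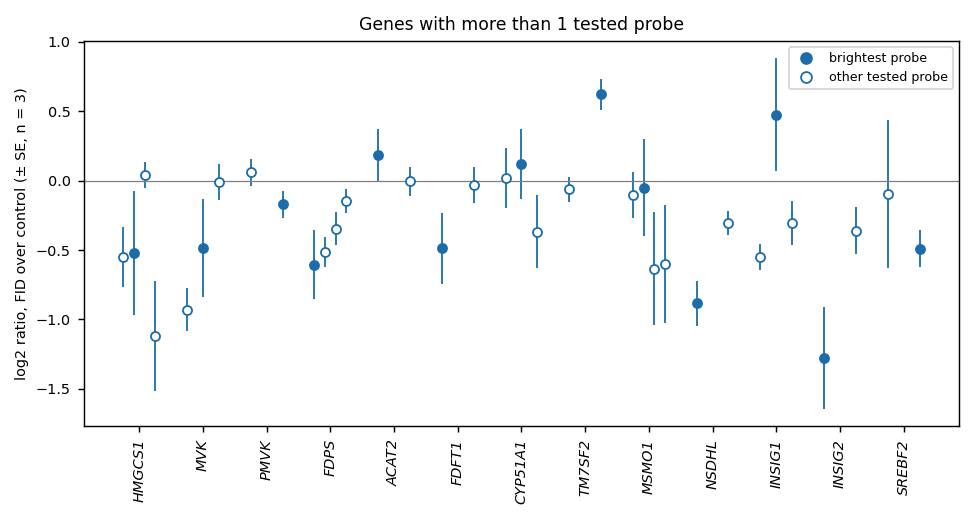
The mean log2 ratio of FID over control is plotted for each tested probe of the members with more than 1 tested probe, with the SE as a bar and the brightest probe marked. The 4 FDPS probes all lie below 0, while the 3 INSIG1 probes lie on both sides of it, between -0.55 and 0.47.

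Neighbouring gene lists set the members in context, read as counts past the threshold and medians beside 0.01 for all genes. Other SREBP targets of sterol and fatty acid supply had a median of -0.19 over 12 tested genes and none past the threshold. The smallest limma adjusted p among them were those of PCYT2, which makes a phospholipid precursor, at 1.19 ± 0.21 (adjusted p = 0.077), and ACLY, which supplies cytosolic acetyl-CoA, at -1.52 ± 0.32 (adjusted p = 0.0968). ACLY had -1.24, -2.37 and -0.97 in replicates 1, 2 and 4, and a second PCYT2 probe averaged 0.09. The replicate block called both, with adjusted p-values of 0.00615 for PCYT2 and 0.00662 for ACLY. It also called TMEM97 (-1.05, adjusted p = 0.0153) and ELOVL6 (-1.21, adjusted p = 0.0104) lower. In this list the block fit thus called 1 gene higher and 3 lower of 12, against 8.85% and 11.9% of all genes. Regulators of sterol sensing had a median of -0.22 over 8, none past the threshold. ERLIN1, which takes part in sterol-driven protein degradation, averaged -0.85 ± 0.16 (limma adjusted p = 0.0829), and MBTPS2, a protease that releases SREBP, averaged -0.64 ± 0.17 (adjusted p = 0.138). With the replicate block these adjusted p-values were 0.0151 for ERLIN1 and 0.0268 for MBTPS2.

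The isoprenoid branch, which draws on farnesyl diphosphate, had a median of -0.16 over 11 tested genes and 1 past the threshold. COQ2, which joins the isoprenoid tail to the ubiquinone ring, fell, with -0.94, -0.88 and -1.16 in replicates 1, 2 and 4 and a mean of -0.99 ± 0.10, 1.99-fold lower with FID (limma adjusted p = 0.049). Its arrays with FID in Cy3 were each lower than their partners. LXR and its targets, which answer to oxysterols, had a median of 0.05 over 9 and none past the threshold. MYLIP, a ubiquitin ligase induced by LXR, averaged 1.45 ± 0.25 (limma adjusted p = 0.077), and ABCA7, a lipid transporter, averaged 0.46 ± 0.09 (adjusted p = 0.0887). With the replicate block both passed, at 0.00598 for MYLIP and 0.0401 for ABCA7. A second ABCA7 probe averaged 0.06.

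Genes of lipoprotein uptake and the lysosome had a median of -0.08 over 8, with 1 past the threshold. OLR1, a scavenger receptor for oxidised lipoprotein, fell, with -4.78, -6.29 and -5.05 in replicates 1, 2 and 4 and a mean of -5.37 ± 0.34 (limma adjusted p = 0.0476). With FID its spot was above background on 3 of 6 arrays. The list of sterol transfer and oxysterol genes had the highest median of the context lists, 0.47 over 13, with 1 past the threshold. OSBPL8, a lipid transfer protein of the endoplasmic reticulum, rose, with 1.21, 1.36 and 1.28 in replicates 1, 2 and 4 and a mean of 1.28 ± 0.09, 2.43-fold higher with FID (limma adjusted p = 0.0476). Its other tested probe averaged 0.56. CH25H, which makes an oxysterol that blocks SREBP release, averaged 2.16 ± 0.42 (limma adjusted p = 0.0882, or 0.00411 with the replicate block). That fit called 7 of the 13 genes of the list higher and 0 lower, where it called 8.85% of all genes higher and 11.9% lower. Its degrees of freedom count both arrays of a replicate, and the list was chosen with earlier results of these data known. Ratios were negative for 3 of the 13, SCP2 among them. All 5 tested SCP2 probes were negative (-1.16 to -0.11). With any 1 of the 3 replicates left out, no probe on the array passed the threshold, those of COQ2, OLR1 and OSBPL8 included, and the same was so without background correction, with marked spots kept and with the authors' deposited ratios.

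**Figure D4:**
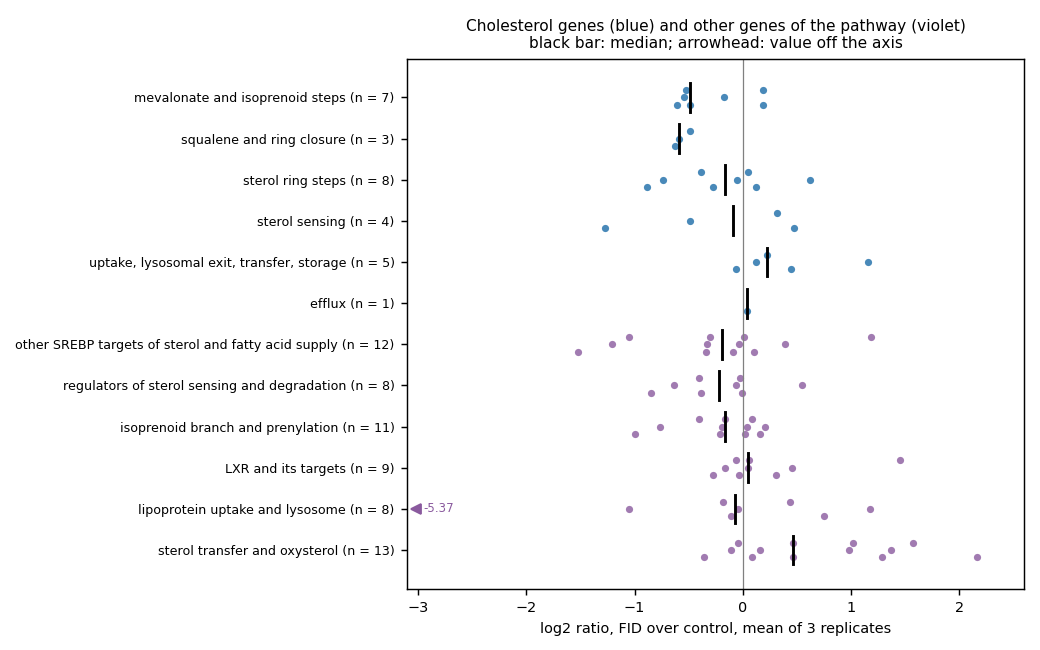
Each point is the mean log2 ratio of FID over control of 1 tested gene, grouped by role for the members and by list for the context genes, with the median of each group as a bar and an arrowhead for OLR1 at -5.37, off the axis. The squalene and ring closure enzymes have the lowest median, -0.59, and the sterol transfer and oxysterol list the highest, 0.47.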

How the data were processed

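Cumulus cell RNA was amplified in 2 rounds and labelled with Cy3 or Cy5, per the labels' protocols. For each spot and channel the deposited files hold an unnormalised intensity with a background intensity measured around it (532 nm for Cy3, 635 nm for Cy5), per the file headers. A pair of identical tables holds log2 ratios made by the authors; against the scanner values they ran as Cy5 over Cy3, with column medians of -0.0185 to -0.0029, and how they were normalised is not given in the sources used here.

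Mean intensity was background-corrected with normexp (offset 50) after leaving out 13 to 88 spots per array that carry the deposited mark for ignored cells, and normalised by loess within arrays, with control spots at weight 0 (limma 3.58.1, R 4.3.3). Signs were turned on arrays with FID in Cy3. A probe was tested if above the 95th percentile of 153 negative controls on at least 4 of 6 arrays in either group (32192 of 43794 probes). The pair of arrays of a replicate was averaged, and lmFit and eBayes were fitted with p-values adjusted by Benjamini-Hochberg over every tested probe. The same-numbered pairing is the shared array itself. The labels call the replicates biological, and nothing says how many animals each held, so p-values measure the spread between these samples. Gene symbols came from the platform annotation: 21790 probes had 1 symbol, 22004 none and 0 several. A gene is its brightest tested probe. The fit was tested on simulated data. The members and lists were chosen with earlier results of these data known. All members are reported by role; per-array values are given for the 6 members with the largest ratios and the 6 with the smallest p, and context lists are named by genes past the threshold or the pair with the smallest p. Genes outside these rules, such as CH25H, and second probes were named after their values were seen. The planned promoter search was not run, and no sequence is printed. Alternatives are given in the closing section.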

Additional observations from a re-analysis of the deposited data

How the results depend on the processing

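The members' median stayed negative under all alternatives run (-0.26 to -0.05), as did that of the 18 synthesis enzymes (-0.56 to -0.22; a subset chosen after its values were seen). The number of members past the threshold was 0 except with only the arrays with FID in Cy3, which gave 1 (TM7SF2, 0.94, limma adjusted p = 0.0494), and with the replicate block, which gave 4. Of 119 values of the 8 members given by array, 5 crossed to the called side and 0 changed sign. Over the whole array, 558 probes passed (7571 at an unadjusted p under 0.05). The limma count was 1423 with a normexp offset of 0, 980 with probes above background in both groups on all arrays, 1675 with only FID in Cy5, 2320 with only FID in Cy3, and 5190 with the replicate block (within-replicate correlation 0.61). It was 0 with no background correction (7104 at an unadjusted p under 0.05), 0 with marked spots kept in the background fit (7029), 0 with the authors' deposited ratios (7430), and 0 to 0 with a replicate left out (4886 to 6585). The smallest adjusted p in limma was 0.0476, near the threshold, and the cause of these shifts was not tested. With the mean over all tested probes of a gene, 230 genes were higher and 271 lower, against 132 and 160 by the brightest probe. Aquantile scaling leaves ratios as they are. Signal limited STARD4 and ABCA1, which could not be tested.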

Other observations

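Genes that use or release cholesterol, chosen after their values were seen, gave these values. STAR, which brings cholesterol to the inner mitochondrial membrane, had 1.02, 3.12 and 0.59 in replicates 1, 2 and 4, with a limma adjusted p of 0.22. The means of its 3 tested probes ran from 0.42 to 1.58, and the probe given here was the highest. CYP11A1, which cleaves the cholesterol side chain, had 0.64, 0.77 and 1.64, with a limma adjusted p of 0.114. LIPA, the lysosomal lipase that frees cholesterol from its esters, had -0.64, -0.97 and -1.54, with a limma adjusted p of 0.0895. Each had the same sign on 6 of 6 arrays, where 12.5% of all genes were higher and 15.4% lower on 6 of 6. None of the 3 passed the limma threshold. With the replicate block all 3 passed, with adjusted p-values of 0.0400 for STAR, 0.0142 for CYP11A1 and 0.0107 for LIPA. Of all genes the block fit called 8.85% higher and 11.9% lower, counting both arrays of a replicate. Because the 3 genes were picked by their values, their counts beside these shares are no result about them.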
